A study of Homo sapiens with 12 samples.

Results

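The genes described here encode the voltage-gated calcium and sodium channels and the potassium channels, together with the auxiliary subunits named after them, in 2 human pancreatic neuroendocrine tumor (pNET) cell lines. Members were taken by name: every row of both count tables whose symbol begins with CACN or KCN, or reads SCN, a number and A, without symbols that hold a hyphen or OT1. The name patterns matched 160 rows, 26 were excluded, and 134 of the 28008 genes in the tables remained. A mean of 10 or more counts over the 6 libraries of a line was reached by 75 members in QGP-1 and 59 in BON-1, which makes 84 in either line, with 50 in both, 25 in QGP-1 alone and 9 in BON-1 alone. The other 50 members stayed under that mean in both lines, and 9 of them (CACNG3, KCNG2, KCNJ13, KCNJ18, KCNK4, KCNK17, KCNMB1, KCNQ1DN and KCNS1) had no count in any of the 12 libraries. Just inside the limit were KCNK9 in QGP-1 (mean of 13.0 counts) and KCNK5 and CACNA1E in BON-1 (10.2 each), and just outside it KCNK16 in QGP-1 (7.83) and KCNJ5 in BON-1 (7.50).

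QGP-1 and BON-1 are established lines from pancreatic neuroendocrine tumors, and both carry a doxycycline-inducible short hairpin RNA against MUC1 (tet-MUC1shRNA), a gene for a membrane glycoprotein whose transmembrane subunit MUC1-C is the oncogenic part. Cells of all 4 groups therefore hold the same vector, selected with puromycin, and differ in line and in treatment: 0.1% DMSO as the vehicle or 500 ng/mL doxycycline (DOX), for 7 days, with 3 cultures and 3 libraries per group. No library of DOX-treated cells with a control hairpin was analysed here, so an effect of DOX itself and an effect of the hairpin cannot be told apart. QGP-1 grew in RPMI 1640 and BON-1 in DMEM/F-12, so that line and medium cannot be told apart either. Totals of gene counts ran from 38224144 to 50525926 in QGP-1 and from 15981954 to 28484324 in BON-1, and members took 0.223% ± 0.00412 (SD, n = 3) of the counts in QGP-1 with vehicle and 0.242% ± 0.000996 in BON-1. MUC1 transcripts fell with DOX from 6.37 ± 0.867 to 0.850 ± 0.188 CPM (counts scaled to library size; mean ± SD, n = 3) in QGP-1, and from 18.4 ± 2.99 to 2.65 ± 1.25 CPM in BON-1.

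These channels set the electrical behaviour of excitable and hormone-secreting cells. Voltage-gated sodium and calcium channels open when the membrane depolarises, and the calcium that enters through the latter triggers the fusion of secretory granules. Potassium channels hold the resting potential and end each action potential, and in islet cells the ATP-sensitive potassium channel couples metabolism to the membrane potential. A pore-forming subunit fixes the ion and the gating, while auxiliary subunits (alpha2delta and beta for calcium, KCNE, KCNMB, KChIP and Kv beta for potassium) change trafficking and kinetics.

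In vehicle-treated cells both lines held a broad set of channel transcripts, led in each by CACNA2D1, the alpha2delta-1 subunit that carries calcium channel pores to the cell surface. Levels of different genes are compared here per transcript length, as the authors' TPM divided by the median TPM of the genes tested in that line. By that measure CACNA2D1 stood at 7.34 ± 0.345 times the median gene in QGP-1 (SD, n = 3; the 89.5th percentile of the genes tested) and at 20.9 ± 1.36 times in BON-1 (96.9th percentile). In QGP-1 the sodium channel pore SCN3A followed at 7.05 ± 0.534 times the median, a difference from CACNA2D1 that was within their SDs. Next in QGP-1 came the A-type potassium channel KCND2 (Kv4.2) at 3.06, the M-current subunit KCNQ3 at 2.40, the delayed rectifier KCNB2 at 2.36, SCN9A and KCNH2 (hERG) at 2.32 each, KCNH7 and the silent subunit KCNS3 at 2.22 each, and the inward rectifier KCNJ2 (Kir2.1) at 1.69, where neighbours from KCNQ3 to KCNS3 lay within their SDs of each other. In BON-1 the order after CACNA2D1 was the T-type calcium channel CACNA1H at 3.42 times the median, the G protein-gated inward rectifier KCNJ3 (Kir3.1) at 2.84, KCNE4 at 2.19, KCNH7 at 1.73, SCN2A at 1.63, the leak channel KCNK3 (TASK-1) at 1.47, KCNH6 at 1.40, KCNMB2 at 1.24 and KCNG3 at 1.23. The gap from CACNA1H to KCNJ3 and that from KCNJ3 to KCNE4 exceeded the SDs of the levels (0.103, 0.0951 and 0.254), whereas KCNH7 and SCN2A, and KCNMB2 and KCNG3, did not separate. KCNH7 and CACNA2D1 were the genes found among the first 10 of both lines.

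The lines differed widely in which channels they transcribed. In the test of BON-1 against QGP-1 with vehicle, 45 of the 84 members tested were lower in BON-1 (53.6%) and 29 were higher (34.5%), against a background of 38.0% lower and 39.4% higher among the 15835 genes tested (edgeR's quasi-likelihood test, Benjamini-Hochberg adjusted p below 0.05). The 84 tested include KCNA3, which was under the mean of 10 counts, and leave out CACNA1E. In bulk cultures such as these, fewer cells that hold a transcript and less of it per cell cannot be told apart. The median log2 difference (BON-1 minus QGP-1) was -0.79 over the members and 0.03 over all genes. Several genes had no count in BON-1. KCNJ2 held 2161, 2299 and 3044 counts in the QGP-1 vehicle libraries and none in any BON-1 library, which puts QGP-1 at least 1377-fold higher when the 3 BON-1 vehicle libraries together are given 3 counts. On the same floor KCNU1, a sperm-type potassium channel, was at least 135-fold higher in QGP-1, the Kv3 pore KCNC2 at least 45.8-fold, the skeletal muscle sodium channel SCN4A at least 42.3-fold, KCNQ5 at least 26.3-fold, the mechanically gated leak channel KCNK2 at least 18.8-fold and KCNV1 at least 17.8-fold. KCNH1 and CACNG4 had 1 count each, and KCNS3 and CACNG2 3 counts each, over the BON-1 vehicle libraries together, against totals of 880, 2218, 4358 and 2374 in QGP-1.

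KCNQ3 and KCNQ1 belong to the Kv7 family of pores, which carry the M-current and the slow cardiac potassium current. KCNQ3 was at 189, 186 and 165 CPM in the QGP-1 vehicle libraries and at 0.279, 0.129 and 0.267 CPM in those of BON-1. Both were lower in BON-1 by the test, with log2 differences of -9.58 for KCNQ3 and -6.08 for KCNQ1. Of the 7 sodium channel pores tested, 5 were lower in BON-1 and 2 higher, beside 38.0% and 39.4% of all genes and 53.6% and 34.5% of the members. SCN3A was at 429 ± 27.5 CPM in QGP-1 and 9.02 ± 0.380 CPM in BON-1 (46.2-fold, adjusted p = 4.09e-21), and SCN9A at 150 ± 4.62 and 3.39 ± 0.271 CPM (43.2-fold). SCN2A, by contrast, was higher in BON-1, at 106 ± 9.85 against 72.7 ± 6.32 CPM (1.49-fold, adjusted p = 6.04e-06), and SCN8A was 1.21-fold higher, a call kept in 2 of the 6 fits that left out a library, at log2 differences between 0.14 and 0.36, and lost with DESeq2 and in the fit of all 12 libraries. SCN1A, SCN2A, SCN3A, SCN7A and SCN9A lie in 1 stretch of chromosome 2 (GRCh38), between position 165087526 (the end of SCN3A) and 166611482 (the start of SCN7A). Within it SCN2A reaches up to 165392310, and the span of SCN1A, the next of them, begins at 165984641. These 5 genes did not share a direction between the lines.

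Of the 7 calcium channel pores tested, 4 were higher in BON-1 and 3 lower, beside 39.4% and 38.0% of all genes. CACNA1H, the Cav3.2 T-type pore, which opens near the resting potential, was at 204, 194 and 186 CPM in BON-1 and 49.8, 44.7 and 38.8 CPM in QGP-1 (4.50-fold, adjusted p = 2.53e-15). CACNA1C, the Cav1.2 L-type pore, was at 53.7 ± 2.94 against 6.13 ± 1.30 CPM (8.93-fold), and the T-type pore CACNA1G (Cav3.1) at 12.3 ± 1.98 CPM in BON-1 against 13 counts over the 3 QGP-1 vehicle libraries. The P/Q-type pore CACNA1A went the other way, at 9.60 ± 0.964 CPM in QGP-1 and 3.04 ± 0.566 in BON-1 (3.07-fold). The L-type pore CACNA1D (Cav1.3), used by islet cells, was lower in BON-1 by a smaller margin, at 85.8 ± 2.44 CPM in QGP-1 and 65.8 ± 7.80 in BON-1 (1.27-fold). Both calls were kept in all 6 fits that left out a library and lost with limma on TPM. Among auxiliary subunits CACNA2D2 was higher in BON-1 (22.9 ± 1.39 against 1.41 ± 0.279 CPM, 16.7-fold) and CACNB4 in QGP-1 (42.6 ± 0.745 against 0.655 ± 0.272 CPM, 63.5-fold). Potassium channel genes higher in BON-1 included KCNJ3 (100, 93.5 and 91.4 CPM against 0.296, 0.261 and 0.619) and the leak channel KCNK10 (TREK-2, 8.77 ± 0.251 CPM against 1 count in QGP-1). They also included KCNH5, KCNT1, KCNK9, KCNH6 and the auxiliary subunit gene KCNMB2, and KCNK13 was at least 19.6-fold higher in BON-1 on the floor given above. Of the channels with a textbook place in islet cells, the calcium-activated KCNN4 was at 11 counts over the 3 QGP-1 vehicle libraries and 0 in BON-1, and the islet leak channel KCNK16 at 22 and 0 counts.

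**Figure D1:**
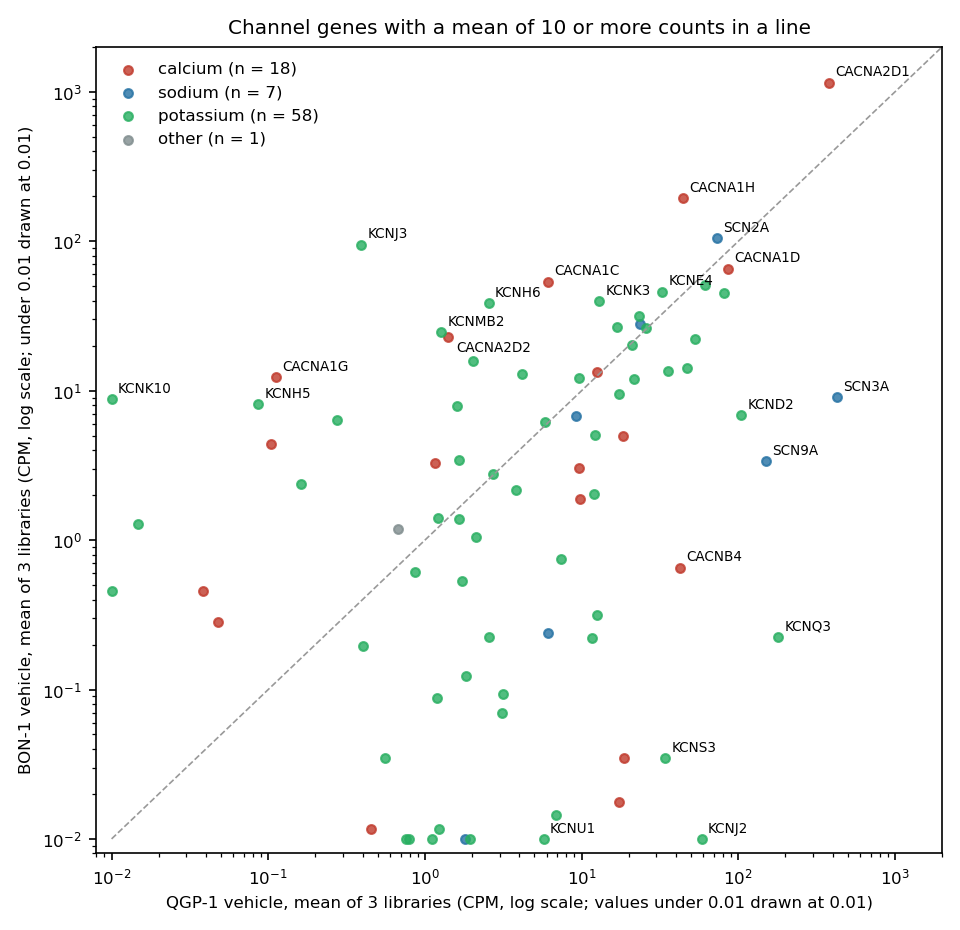
Each point is 1 of the 84 channel genes with a mean of 10 or more counts in a line, placed by its mean CPM with vehicle in QGP-1 (horizontal, log scale) and BON-1 (vertical, log scale; n = 3 libraries each), and the dashed line marks equal levels. CACNA2D1 is the highest point in BON-1 at 1154 CPM, and KCNJ2, at 58.5 CPM in QGP-1 and 0 in BON-1, sits on the lower edge.

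DOX changed channel transcripts in both lines, to a different extent in each direction. In QGP-1, 20 of the 75 members tested were higher (26.7%, against 17.3% of all 15089 genes tested) and 10 were lower (13.3%, against 17.7%). In BON-1, 6 of 58 were higher (10.3%, against 17.0% of 14625 genes) and 11 were lower (19.0%, against 18.3%), so that the BON-1 share lower was near the background. The median log2 fold change of the members was 0.10 in QGP-1 and 0.01 in BON-1, beside -0.01 over all genes in each. All members' share of the counts was 0.264% ± 0.0102 with DOX in QGP-1 and 0.256% ± 0.00289 in BON-1. The changes were mostly small: 6 of the lower and 1 of the higher members in QGP-1, and 5 and 2 in BON-1, passed a log2 fold change of 1. Without DOX replicate 2 the QGP-1 count of lower members was 6, and without vehicle replicate 2 the count of higher members was 13. On the authors' TPM scale, where the median of all genes itself was 0.48 in QGP-1 and -0.26 in BON-1 (log2), limma called 0 members lower and 42 higher in QGP-1 and 3 lower and 0 higher in BON-1.

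Both lines shared 10 called members, 7 in the same direction and 3 in opposite ones, of 50 tested in both and 27 of them called in either line. These shares, 14.0% in the same direction and 6.0% in opposite ones, compare with 14.1% and 2.69% of the 13535 genes tested in both lines. KCNK3 and CACNA2D2 were lower in both, CACNA2D1, KCNH7, KCNH8, SCN3A and SCN9A were higher in both, KCND1 and KCNJ11 were higher in QGP-1 and lower in BON-1, and KCNE4 was lower in QGP-1 and higher in BON-1. On the TPM scale the log2 fold change of KCNE4 in BON-1 was -0.02. A further 23 members were tested in both lines and called in neither, among them the calcium channel pores CACNA1D and CACNA1H, the delayed rectifier KCNB2, KCNH2, KCNH6 and SCN2A.

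**Figure D2:**
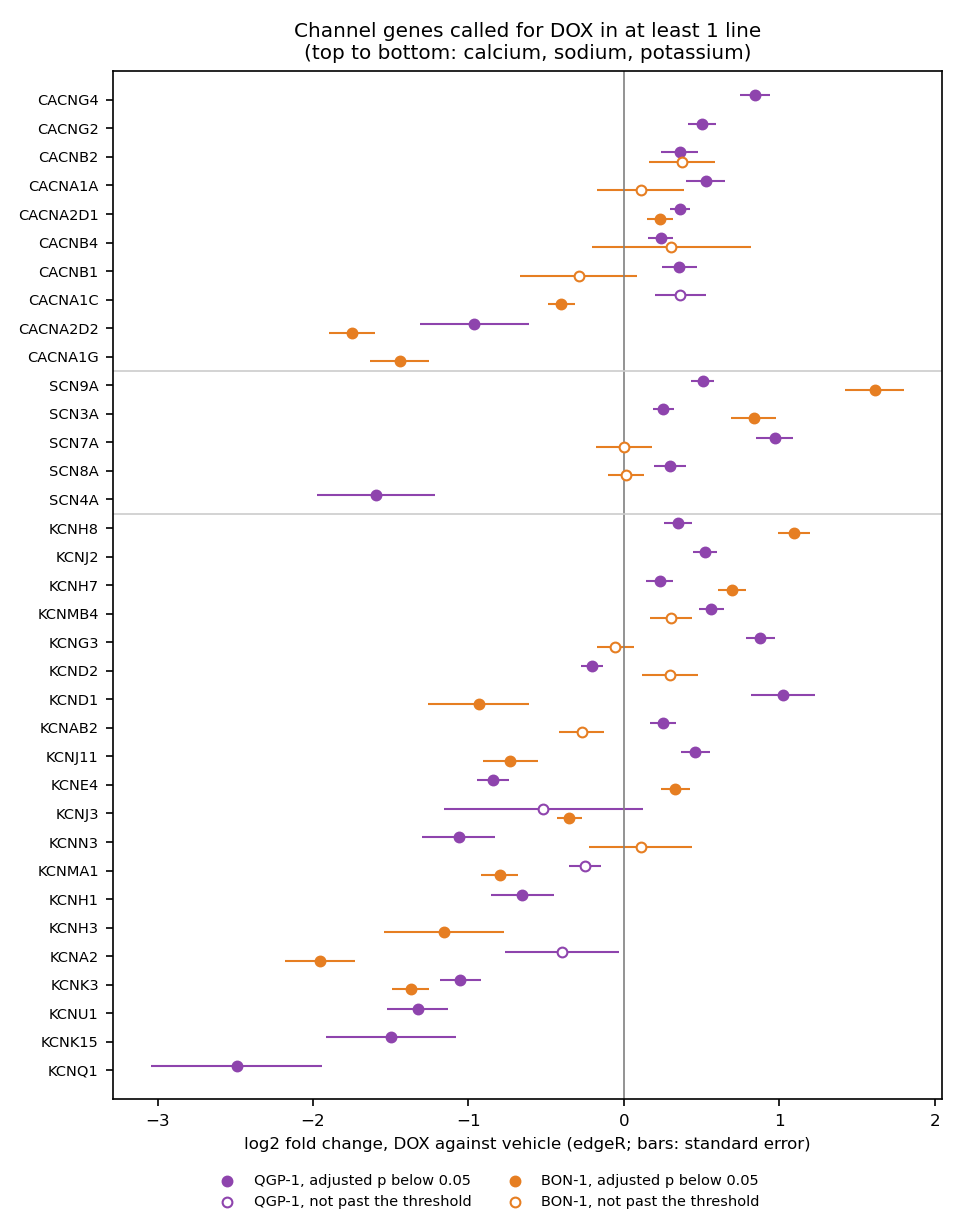
Log2 fold change of DOX against vehicle (horizontal axis; bars, standard error) for 35 of the 37 channel genes called in at least 1 line, in QGP-1 (purple) and BON-1 (orange); filled circles passed an adjusted p of 0.05, open circles did not, and a missing circle is a gene with too few counts for the test. KCNQ1 in QGP-1 lies farthest to the left (-2.49) and SCN9A in BON-1 farthest to the right (1.61). On the TPM scale KCNH1 in QGP-1 and KCNE4 in BON-1 change sign. The median of all genes on that scale was itself 0.48 in QGP-1 and -0.26 in BON-1.

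KCNK3 and CACNA2D2 fell in both lines. KCNK3 encodes TASK-1, an acid-sensitive two-pore-domain channel that carries background potassium current. The QGP-1 libraries held 14.3, 11.8 and 13.0 CPM with vehicle and 6.60, 6.66 and 5.53 with DOX, and those of BON-1 42.3, 38.3 and 38.2 with vehicle and 17.9, 15 and 13.4 with DOX. In neither line did the groups overlap, and the log2 fold changes were -1.05 ± 0.132 (SE; adjusted p = 4.72e-05) and -1.37 ± 0.117 (3.84e-10). CACNA2D2, the alpha2delta-2 subunit, was at 21.9, 22.2 and 24.4 CPM with vehicle and 7.0, 7.84 and 5.69 with DOX in BON-1, a log2 fold change of -1.75 ± 0.147 (adjusted p = 2.98e-10). In QGP-1 it was scarce, at 1.72, 1.19 and 1.32 CPM with vehicle and 0.722, 0.598 and 0.834 with DOX, and its call there (-0.96 ± 0.351, adjusted p = 0.0458) was lost whichever library was left out, at values from -0.80 to -1.08. CACNA2D1, the abundant paralog, moved the other way in both lines, from 379 ± 12 to 486 ± 11.0 CPM in QGP-1 and from 1154 ± 87.2 to 1365 ± 34.7 CPM in BON-1. Its log2 fold changes were 0.36 ± 0.0620 (adjusted p = 0.000530) and 0.23 ± 0.0819 (0.0275), and the BON-1 call stood in 1 of the 6 fits that left out a library, at values between 0.18 and 0.28.

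Promoters are shown for 4 of the 7 members called in the same direction in both lines (KCNK3, CACNA2D2, SCN9A and KCNH8) and for KCNH6, which with KCNK3 is the pair of members whose promoter holds both parts of RE1, the element that the neuronal gene repressor REST binds; these were chosen after their values were seen. The sequences are those of RefSeq (GRCh38.p14), which had a 300-base promoter, 250 bases before and 50 after the start, for 97 of the 134 members, and the 250 bases before the start are printed 5′ to 3′ on the strand of the gene. Capitals mark the GC box GGGCGG and the left and right parts of RE1, TTCAGCACC and GGACAGC, each searched on both strands, and no marked match overlaps another. KCNK3 lies on the plus strand (chr2:26692472-26692721), CACNA2D2 (chr3:50504245-50504494) and SCN9A (chr2:166375945-166376194) on the minus strand, and KCNH8 (chr3:19148260-19148509) and KCNH6 (chr17:63523108-63523357) on the plus strand.
KCNK3: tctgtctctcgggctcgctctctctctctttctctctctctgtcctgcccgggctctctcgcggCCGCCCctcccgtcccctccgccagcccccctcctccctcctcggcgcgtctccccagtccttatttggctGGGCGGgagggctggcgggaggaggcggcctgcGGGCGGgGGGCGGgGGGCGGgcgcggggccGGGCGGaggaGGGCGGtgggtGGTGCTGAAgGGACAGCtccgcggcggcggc
CACNA2D2: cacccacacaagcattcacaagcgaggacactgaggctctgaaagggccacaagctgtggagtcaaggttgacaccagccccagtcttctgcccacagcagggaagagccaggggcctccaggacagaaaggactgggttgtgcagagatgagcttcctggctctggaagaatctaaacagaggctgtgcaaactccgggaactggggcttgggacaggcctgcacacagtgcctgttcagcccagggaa
SCN9A: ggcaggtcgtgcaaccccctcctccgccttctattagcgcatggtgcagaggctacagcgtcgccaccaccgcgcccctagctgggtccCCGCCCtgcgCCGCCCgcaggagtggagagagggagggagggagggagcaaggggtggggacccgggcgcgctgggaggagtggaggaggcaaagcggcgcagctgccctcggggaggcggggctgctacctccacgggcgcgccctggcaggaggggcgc
KCNH8: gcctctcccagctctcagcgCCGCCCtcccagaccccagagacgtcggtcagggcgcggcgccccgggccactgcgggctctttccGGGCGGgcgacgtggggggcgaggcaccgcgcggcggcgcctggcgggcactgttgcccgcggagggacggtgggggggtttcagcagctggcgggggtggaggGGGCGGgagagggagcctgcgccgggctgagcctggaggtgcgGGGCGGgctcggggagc
KCNH6: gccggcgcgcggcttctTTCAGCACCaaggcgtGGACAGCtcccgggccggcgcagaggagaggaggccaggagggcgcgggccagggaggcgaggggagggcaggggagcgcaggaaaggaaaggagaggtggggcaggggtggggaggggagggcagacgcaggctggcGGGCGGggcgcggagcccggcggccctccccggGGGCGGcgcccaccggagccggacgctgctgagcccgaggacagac
In KCNK3 the left part stood on the reverse strand from base -31 to -23 and the right part on the forward strand from -21 to -15, so that the parts face in opposite directions with 1 base between them. In KCNH6 both parts stood on the forward strand with 7 bases between them, and KCNH6 was not called in either line (log2 fold change -0.46 in QGP-1, adjusted p = 0.190, and 0.05 in BON-1, adjusted p = 0.751). Both parts together were found in 0.0696% of all 27305 promoters, the left part in 0.403% of them and in 3 of the 97 of members (3.09%), and the right part in 6.11% and 11.3%. The GC box was in 44.6% of all promoters and 61.9% of the members' promoters, whose median GC content was 65.7% against 58.3%. KCNK3 held 7 GC boxes in the printed stretch, KCNH8 4, SCN9A and KCNH6 2 each and CACNA2D2 none. The E-box CACGTG was in 7.43% of all promoters and 5.15% of the members', the cyclic AMP response element TGACGTCA in 1.98% and 1.03%, and no E-box was found in these 5. A match of letters does not show that a factor binds there, and whether REST bears on these genes was not tested. No entry was found for SCN3A, KCNJ11, KCNE4 or KCNH7. CACNA2D1, also called in the same direction in both lines, had an entry with 3 GC boxes, which is not printed here.

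Among the calcium channel pores, DOX moved different genes in the 2 lines. CACNA1A, the P/Q-type pore of nerve terminals, was higher in QGP-1: the libraries held 10.2, 8.49 and 10.1 CPM with vehicle and 12.2, 13.9 and 15.3 with DOX (log2 fold change 0.53 ± 0.127, adjusted p = 0.00527), and in BON-1 it was at 3.04 ± 0.566 and 3.30 ± 0.962 CPM (adjusted p = 0.796). CACNA1G, the T-type pore tested in BON-1 alone, fell there from 13.1, 13.7 and 10.0 CPM to 3.59, 4.33 and 5.69 CPM (-1.44 ± 0.189, adjusted p = 8.51e-07). CACNA1C fell in BON-1 as well, from 52.0, 57.1 and 52.1 to 40.3, 41.6 and 40.9 CPM (-0.40 ± 0.0891, adjusted p = 0.000773), while the QGP-1 libraries held 4.95, 5.91 and 7.53 CPM with vehicle and 7.39, 8.66 and 7.67 with DOX, an overlap of groups that missed the threshold (0.36 ± 0.164, adjusted p = 0.102). The 2 pores with the highest counts in both lines did not pass the test in either: CACNA1D had log2 fold changes of -0.03 ± 0.0687 and 0.08 ± 0.0928, and CACNA1H of -0.02 ± 0.111 and 0.01 ± 0.0755, in QGP-1 and BON-1. So 1 of the 5 pores tested in QGP-1 rose (17.3% of all genes did), and 2 of the 6 tested in BON-1 fell (18.3%).

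Of the calcium channel auxiliary genes, 6 of the 9 tested in QGP-1 were higher and 1 lower, and 1 of the 8 tested in BON-1 was higher and 1 lower, against 17.3% and 17.0% of all genes higher. None of the 10 tested by the interaction of line and DOX passed it. The clearest were the 2 genes CACNG2 and CACNG4, whose proteins (stargazin and its relative) are better known for carrying AMPA receptors to the membrane. CACNG4 held 18.6, 17.3 and 16.4 CPM with vehicle and 29.5, 30.8 and 33.5 with DOX in QGP-1 (0.84 ± 0.0960, adjusted p = 2.16e-05), and CACNG2 18.8, 18.4 and 18.6 against 26.2, 26.2 and 26.6 CPM (0.50 ± 0.0886, adjusted p = 0.000630). Of the cytoplasmic beta subunits, which the pores need to reach the membrane, CACNB1, CACNB2 and CACNB4 were higher in QGP-1, by 0.36, 0.36 and 0.24 on the log2 scale. Each of these 3 calls was kept in 2 of the 6 fits that left out a library and was lost when all 12 libraries shared a fit. CACNB3, the beta subunit of islet cells, was at 12.5 ± 0.803 and 11.6 ± 1.20 CPM in QGP-1 and 13.3 ± 0.653 and 13.2 ± 1.61 in BON-1 (adjusted p = 0.513 and 0.943).

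Of the sodium channel pores, 4 of the 7 tested in QGP-1 and 2 of the 5 in BON-1 rose (17.3% and 17.0% of all genes did), and 1, SCN4A, fell in QGP-1. SCN9A encodes Nav1.7, a channel of pain neurons that also carries sodium current in islet cells. In QGP-1 its libraries held 154, 145 and 150 CPM with vehicle and 190, 221 and 226 with DOX (0.51 ± 0.0747, adjusted p = 0.000165). BON-1 held 3.34, 3.15 and 3.68 CPM with vehicle and 10.7, 10.8 and 9.83 with DOX, a 3.06-fold rise (1.61 ± 0.190, adjusted p = 1.35e-07). The DOX-treated BON-1 cells were still far below vehicle-treated QGP-1 cells. SCN3A (Nav1.3) went from 437, 398 and 451 to 505, 533 and 495 CPM in QGP-1 (0.25 ± 0.0682, adjusted p = 0.0101), a call lost without vehicle replicate 2 at 0.20, and from 9.44, 8.93 and 8.70 to 17.6, 15.2 and 15.8 CPM in BON-1 (0.83 ± 0.144, adjusted p = 4.29e-05). Vehicle and DOX libraries of both genes did not overlap in either line.

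A further gene of the chromosome 2 cluster, SCN7A, did so in QGP-1. It encodes Nax, a sodium-sensing relative that is not opened by voltage, and it was at 8.66, 8.54 and 10.5 CPM with vehicle and 18.3, 16.7 and 19.3 with DOX (0.97 ± 0.119, adjusted p = 4.02e-05). BON-1, which held 6.79, 7.16 and 6.41 CPM with vehicle, held 6.63, 6.92 and 6.95 with DOX (0.00 ± 0.181, adjusted p = 0.999). SCN2A and SCN1A of the same cluster did not pass the test, at 0.17 and 0.35 on the log2 scale in QGP-1 (adjusted p = 0.119 and 0.0764) and 0.11 for SCN2A in BON-1 (0.315). SCN8A (Nav1.6, chromosome 12) was called higher in QGP-1, at 23.8 ± 2.97 and 29.3 ± 0.892 CPM (0.30 ± 0.102, adjusted p = 0.0352), in 2 of 6 fits that left out a library and not in the fit of all 12. SCN4A fell in QGP-1 from 70, 86 and 71 counts to 15, 30 and 29 (-1.60 ± 0.381, adjusted p = 0.00501), and it had no count in BON-1. Exons of SCN9A and SCN1A share bases with SCN1A-AS1 on the other strand, and those of SCN3A with another antisense gene; the libraries were stranded, but whether the counting used strand is not given in the sources used here.

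**Figure D3:**
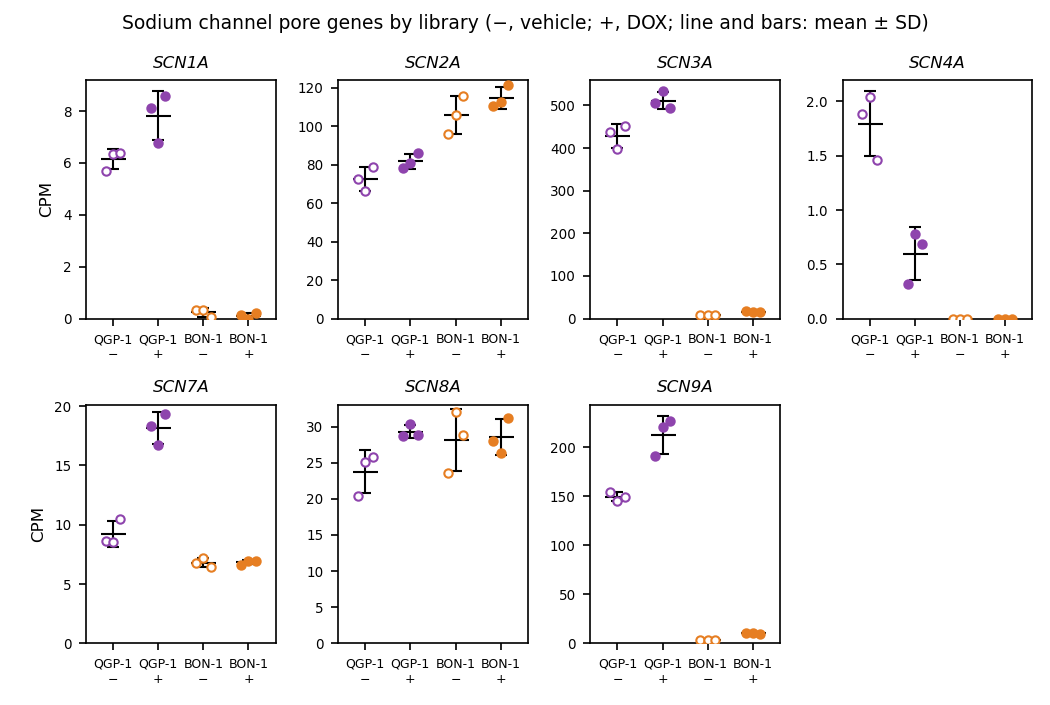
CPM of the 7 sodium channel pore genes tested, in each library (circles; open, vehicle; filled, DOX) with the mean and SD of the 3 libraries of a group (bars), on linear axes that start at 0. SCN9A and SCN3A rise in QGP-1 on the plotted scale, and in BON-1 they go from 3.39 to 10.4 and from 9.02 to 16.2 CPM near the foot of the panels, whereas SCN7A rises in QGP-1 from 9.24 to 18.1 CPM and stands at 6.79 and 6.83 CPM in BON-1.

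The voltage-gated potassium channel pores, with the silent subunits counted among them, showed no common direction. In QGP-1 5 of the 26 tested were higher and 3 lower, and in BON-1 2 of 18 were higher and 4 lower. The shares of all genes were 17.3% higher and 17.7% lower in QGP-1, and 17.0% and 18.3% in BON-1. Silent subunits made up 4 of the 26, with 1 higher, and 2 of the 18, with none called. The 2 pores that rose in both lines belong to the ether-a-go-go group. KCNH8 (ELK1), which opens at negative potentials, held 28.1, 25.7 and 24.0 CPM with vehicle and 33.8, 33.1 and 32.3 with DOX in QGP-1 (0.35 ± 0.0899, adjusted p = 0.00770), and 22.8, 29.8 and 26.1 against 55.6, 53.8 and 59.6 CPM in BON-1 (1.10 ± 0.103, adjusted p = 2.41e-09). Its groups did not overlap in either line. KCNH7 (ERG3) went from 52.0, 47.0 and 53.8 to 73.1, 88.0 and 88.3 CPM in BON-1 (0.70 ± 0.0898, adjusted p = 6.30e-07), and from 59.3, 61.0 and 63.3 to 63.5, 75.6 and 76.2 CPM in QGP-1 (0.23 ± 0.0842, adjusted p = 0.0470), where the call stood in 1 of 6 fits that left out a library. Exons of KCNH7 share bases with GCA on the other strand, whose own log2 fold changes were -0.22 in QGP-1 and 0.25 in BON-1. KCNH2 (ERG1), which shapes firing in beta cells, was at 81.7 ± 11.4 and 88.8 ± 3.87 CPM in QGP-1 and 45.1 ± 4.77 and 48.8 ± 2.98 in BON-1 (adjusted p = 0.338 and 0.428). KCNH1 (EAG1) was lower in QGP-1, from 228, 295 and 357 counts to 148, 156 and 246 (-0.65 ± 0.204, adjusted p = 0.0230, and 0.02 on the TPM scale). KCNH3 (ELK2) was lower in BON-1, from 69, 64 and 36 counts to 19, 29 and 11 (-1.16 ± 0.385, adjusted p = 0.020). These calls were kept in 2 and 3 of 6 fits without a library. Exons of KCNH3 share bases with MCRS1 on the other strand, which was lower in BON-1 as well (-0.35, adjusted p = 0.00983). MCRS1 held 2354 counts over the BON-1 vehicle libraries and 1444 with DOX. Without the strand setting of the counting, reads of the 2 genes cannot be told apart where exons overlap.

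The A-type channel KCND1 (Kv4.1) moved in opposite directions. In QGP-1 it held 3.25, 2.68 and 2.21 CPM with vehicle and 6.65, 5.10 and 4.72 with DOX (1.02 ± 0.206, adjusted p = 0.00165), and in BON-1 2.19, 3.10 and 2.99 against 1.67, 1.27 and 1.41 CPM (-0.93 ± 0.328, adjusted p = 0.0268). The groups were apart in both lines, though the BON-1 call was kept in 2 of 6 fits that left out a library, at values between -0.85 and -1.09. KCND2, its more abundant relative in QGP-1, was slightly lower there, at 105 ± 5.31 and 91.0 ± 4.16 CPM (-0.20 ± 0.0717, adjusted p = 0.0389), a call kept in 2 of 6 fits without a library and lost with scaling to library size alone, without the filter, with limma on TPM and in the fit of all 12 libraries. KCNA2 (Kv1.2), a low-threshold delayed rectifier, fell in BON-1 by the largest margin of the 58 members tested, from 8.78, 7.85 and 7.26 to 1.61, 2.04 and 2.52 CPM (-1.95 ± 0.227, adjusted p = 1.10e-07). In QGP-1 it was at 1.60 ± 0.197 and 1.22 ± 0.588 CPM (-0.40, adjusted p = 0.435).

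KCNG3, which forms no channel alone and joins Kv2 pores such as KCNB2, rose in QGP-1 from 22, 24.6 and 23.7 to 38.6, 45.5 and 45.2 CPM (0.88 ± 0.0939, adjusted p = 1.34e-05). BON-1 held 32.8, 32.1 and 30.3 CPM of it with vehicle and 26.3, 27.4 and 38.7 with DOX, where replicate 3 stood above and the other 2 below the vehicle libraries (-0.05 ± 0.117, adjusted p = 0.757). KCNS3, another silent partner of Kv2 pores, was at 34.3 ± 2.16 and 35.9 ± 1.63 CPM in QGP-1 (adjusted p = 0.585). Of the Kv7 pores, KCNQ1 fell in QGP-1 from 64, 46 and 43 counts to 3, 11 and 13, the largest log2 fold change among the 75 members tested in that line (-2.49 ± 0.550, adjusted p = 0.00303). KCNQ1 shares exon bases with the antisense transcript KCNQ1OT1, which had 2126 counts over the vehicle libraries and 2647 with DOX (adjusted p = 0.150). KCNQ3 was at 180 ± 12.8 and 182 ± 6.89 CPM (0.02 ± 0.0708, adjusted p = 0.890).

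KCNE4, a single-span subunit that inhibits KCNQ1 and some Kv1 channels, was the auxiliary gene with opposite calls. It fell in QGP-1 from 35.5, 31.5 and 31.1 to 16.1, 18.7 and 19.9 CPM (-0.84 ± 0.104, adjusted p = 4.08e-05), with no overlap of groups. In BON-1 it went from 50.1, 48.9 and 39.3 to 57.7, 61.9 and 55.9 CPM (0.33 ± 0.0950, adjusted p = 0.00735; -0.02 on the TPM scale), a call lost without vehicle replicate 3 at 0.23. The other auxiliary genes called were KCNMB4 and KCNAB2, both higher in QGP-1. KCNMB4, the neuronal beta subunit of the large-conductance calcium-activated (BK) channel, rose from 45.1, 47.9 and 48.6 to 73.7, 63.4 and 71.9 CPM (0.56 ± 0.0820, adjusted p = 0.000154), and in BON-1 it was at 14.1 ± 0.881 and 17.5 ± 2.40 CPM (adjusted p = 0.0805). KCNAB2, a Kv beta subunit, was at 35.7 ± 1.82 and 42.5 ± 1.57 CPM in QGP-1 (0.25, adjusted p = 0.0284) and 13.6 ± 0.234 and 11.4 ± 1.33 in BON-1 (-0.27, adjusted p = 0.153), and the QGP-1 call was kept in 2 of 6 fits without a library.

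The pore of the BK channel itself, KCNMA1, fell in BON-1 from 26.8, 27.1 and 26.0 to 16.7, 14.4 and 15.2 CPM (-0.80 ± 0.117, adjusted p = 4.53e-06). The QGP-1 libraries held 17.8, 15.4 and 17.1 CPM with vehicle and 13.4, 14.0 and 14.8 with DOX, apart from each other but short of the threshold (-0.25 ± 0.105, adjusted p = 0.0802). Of the calcium-activated pores of small conductance, KCNN3 (SK3) was lower in QGP-1, from 166, 135 and 185 counts to 66, 80 and 85 (-1.06 ± 0.234, adjusted p = 0.00301), and at 2.15 ± 0.828 and 2.35 ± 0.449 CPM in BON-1 (adjusted p = 0.830). KCNU1 fell in QGP-1 from 210, 246 and 275 counts to 111, 66 and 115 (-1.33 ± 0.198, adjusted p = 0.000184). Among the 4 calcium-, sodium- or pH-gated pores tested in QGP-1, 2 were thus lower, KCNN3 and the pH-gated KCNU1, and none higher. In BON-1, 1 of 3 was lower (17.7% of all genes were lower in QGP-1 and 18.3% in BON-1).

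Of the inward rectifiers, 2 of the 6 tested in QGP-1 were higher and none lower, and 2 of the 4 in BON-1 were lower and none higher. Over all genes 17.3% were higher and 17.7% lower in QGP-1, and 17.0% and 18.3% in BON-1. The inward rectifier called in both lines was KCNJ11. KCNJ11 encodes Kir6.2, the pore of the ATP-sensitive channel that sulfonylureas close in beta cells. QGP-1 held 21.0, 22.2 and 21.9 CPM with vehicle and 27.4, 32.1 and 29.9 with DOX (0.46 ± 0.0931, adjusted p = 0.00172), whereas BON-1 held 14.6, 10.4 and 11.2 with vehicle and 7.0, 8.71 and 6.30 with DOX (-0.73 ± 0.174, adjusted p = 0.00162). The groups did not overlap in either line, and both calls were kept in every fit that left out a library. Its partner subunit in that channel, the sulfonylurea receptor ABCC8, rose in QGP-1 from 68.0, 74.1 and 59.0 to 99.2, 108 and 107 CPM (0.65 ± 0.0865, adjusted p = 7.62e-05), and in BON-1 it was at 17.1, 18.1 and 18.6 and at 19.3, 21.0 and 16.2 CPM (adjusted p = 0.735). KCNJ2, a strong rectifier that holds the resting potential, rose in QGP-1 from 58.1, 54.5 and 62.8 to 86.4, 85.1 and 80.5 CPM (0.52 ± 0.0775, adjusted p = 0.000173). KCNJ2-AS1 on the other strand rose as well, from 274 to 492 counts over the 3 libraries (0.83, adjusted p = 0.0162), and without the strand setting of the counting their reads cannot be told apart where exons overlap. KCNJ3, the leading potassium channel of BON-1, was lower there, from 100, 93.5 and 91.4 to 72.8, 71.9 and 80.5 CPM (-0.35 ± 0.0804, adjusted p = 0.00107). KCNK15, a relative of KCNK3, was lower in QGP-1, from 55, 38 and 58 counts to 25, 13 and 16 (-1.50 ± 0.420, adjusted p = 0.0130), a call that did not hold when vehicle replicate 1 (-1.32) or DOX replicate 2 (-1.37) was left out, nor in the fit of all 12 libraries. Exons of KCNK15 share bases with RIMS4 and KCNK15-AS1 on the other strand. Over the QGP-1 libraries RIMS4 held 504 counts with vehicle and 328 with DOX (-0.58, adjusted p = 0.156), and KCNK15-AS1 held 1 and 17. Of the two-pore-domain genes tested, 6 of 8 in QGP-1 and 5 of 6 in BON-1 were not called. In QGP-1 2 were lower and in BON-1 1, with none higher, beside 17.7% and 18.3% of all genes lower.

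**Figure D4:**
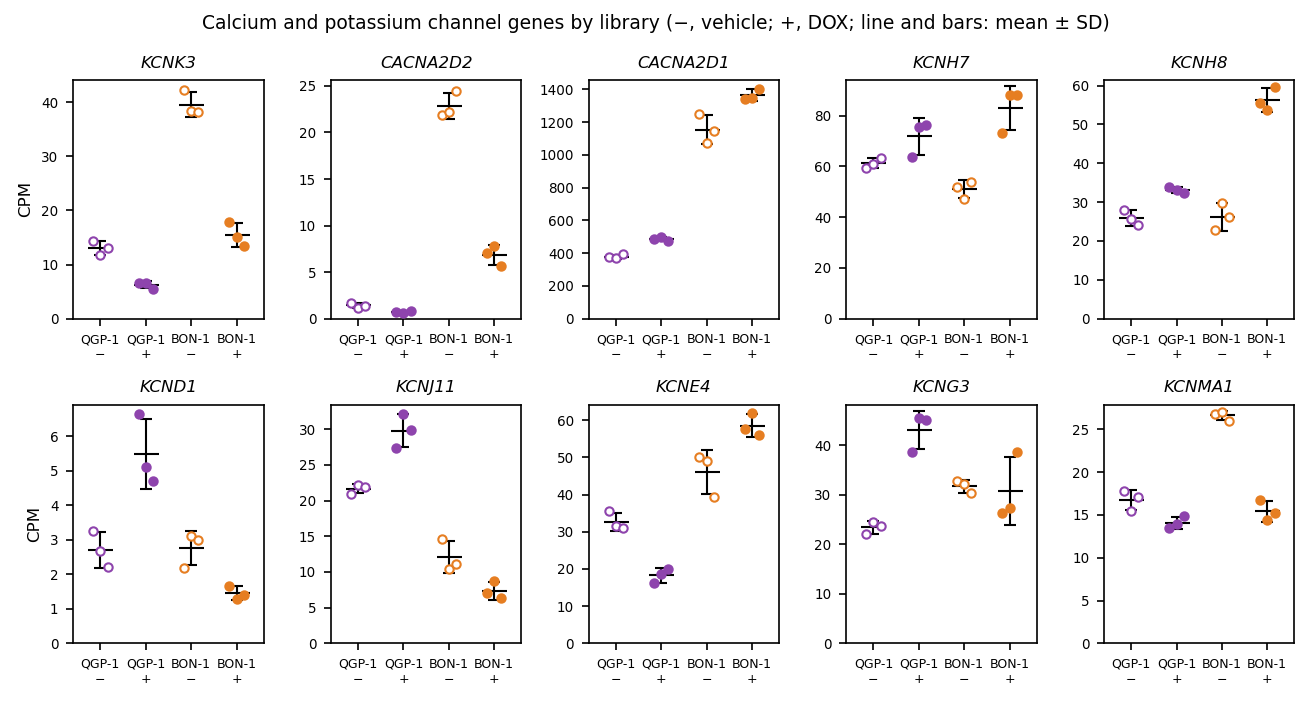
CPM of 10 calcium and potassium channel genes in each library (circles; open, vehicle; filled, DOX; purple, QGP-1; orange, BON-1), with the mean and SD of the 3 libraries of a group, on linear axes that start at 0. KCNK3 drops in both lines, KCND1 and KCNJ11 rise in QGP-1 and drop in BON-1, and KCNE4 goes from 32.7 to 18.3 CPM in QGP-1 and from 46.1 to 58.5 CPM in BON-1, a BON-1 direction that turns on the TPM scale.

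Whether DOX acted differently in the lines was tested by the interaction of line and DOX over all 12 libraries. Of 85 members tested, 8 had a lower log2 fold change in BON-1 than in QGP-1 (9.41%, against 7.92% of 16598 genes) and 8 a higher one (9.41%, against 8.80%), shares near the background. With scaling to library size alone the split over all genes was 1823 lower and 1123 higher, beside 1315 and 1461 here. All 3 genes with opposite calls were among the 16, which adds little, since those calls came from the same libraries. KCND1 differed by -1.95 ± 0.361 (BON-1 minus QGP-1, adjusted p = 0.000540), KCNJ11 by -1.18 ± 0.194 (0.000150) and KCNE4 by 1.18 ± 0.149 (5.21e-06). SCN9A, SCN3A, KCNH8 and KCNH7, called higher in both lines, rose more in BON-1, with differences of 1.12, 0.59, 0.76 and 0.48; on the TPM scale these read -0.69, -0.70, -0.16 and -0.54, beside -0.75 for the median of all genes. SCN7A (-0.96), KCNG3 (-0.92) and KCNAB2 (-0.51), called in QGP-1, and CACNA1C (-0.75), KCNA2 (-1.54) and KCNMA1 (-0.54), called in BON-1, differed between the lines by the test as well. KCND2 differed by 0.52 (-0.52 on the TPM scale). The last 2, KCNH1 (3.85; -0.006 on the TPM scale) and CACNA1F (3.88), rest on few BON-1 counts: 1 with vehicle and 9 with DOX for KCNH1, and 1 and 15 for CACNA1F, over 3 libraries each. For KCNK3, CACNA2D1, CACNA2D2, CACNA1A and KCNMB4 the difference between the lines did not pass the test. Of the 12 fits that left out a library, CACNA1F was called in 3, KCND2 in 8, KCNH1 and KCNH7 in 9 each and KCNA2 and KCNMA1 in 11 each. Without BON-1 DOX replicate 1 the count of higher differences was 5.

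Beyond the members, 55 genes of listed partners and neighbours in the same pathways were read from the same fits: 8 of the 44 tested in QGP-1 were higher and 6 lower, and 9 of the 37 tested in BON-1 were higher and 6 lower. Over all genes 17.3% were higher and 17.7% lower in QGP-1, and 17.0% and 18.3% in BON-1. UNC79, a large subunit of the sodium leak channel that keeps neurons near threshold, rose in both lines, from 51, 53.8 and 52.9 to 67.1, 75.4 and 75.0 CPM in QGP-1 and from 70.9, 71.0 and 67.4 to 110, 113 and 121 CPM in BON-1 (0.46 and 0.71, adjusted p = 0.000423 and 4.69e-08). Its pore NALCN rose in BON-1 (1.38 ± 0.376, adjusted p = 0.00493), where it was scarce, at 72 counts over the vehicle libraries and 151 with DOX. UNC80 rose in QGP-1 (0.39 ± 0.0900, adjusted p = 0.00398). In BON-1 UNC80 held 0 counts over the vehicle libraries and 2 with DOX. FGF12 and FGF14, which bind the tails of sodium channels, were higher in BON-1 (0.70 and 0.27, adjusted p = 1.81e-06 and 0.0455). The sodium channel beta subunit SCN3B was not called in either line. Genes of calcium release moved too: ITPR1 rose in BON-1 from 69.6, 68.6 and 66.5 to 131, 140 and 141 CPM (1.00 ± 0.0768, adjusted p = 4.54e-11), RYR2 rose in QGP-1 (0.53, adjusted p = 0.000132), ITPR2 was higher in QGP-1 and lower in BON-1 (0.49 and -0.22), and ITPR3 was lower in BON-1 (-0.29). STIM2 was higher in both lines (0.42 and 0.25) and STIM1 lower in QGP-1 (-0.41), while the calcium pump ATP2A3 fell in both (-0.54 and -0.44), ATP2A2 was higher and ATP2B4 lower in QGP-1 (0.30 and -0.32). Of the sodium pump, ATP1B1 was higher in BON-1 (0.26) and ATP1B3 was lower in QGP-1 (-0.24). GEM, an inhibitor of calcium channels, was lower in QGP-1 (-0.66, adjusted p = 0.0472). Whether the calls of these partner genes hold when a library is left out was not tested. Of the 4 genes of the REST repressor complex, REST was lower in both lines (-0.62 ± 0.127, adjusted p = 0.00181, in QGP-1 and -0.63 ± 0.195, 0.0129, in BON-1), RCOR1 higher in QGP-1 (0.44), and in BON-1 RCOR2 was lower (-0.88) and RCOR3 higher (0.25).

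Markers of neuroendocrine cells were present in both lines: all 10 listed genes were tested in QGP-1 and 9 in BON-1, where NCAM1 was near 0, and their summed level ran from 6226 to 7090 CPM with vehicle and 6967 to 7601 with DOX in QGP-1. In BON-1 the sum ran from 11537 to 14941 CPM with vehicle and 9267 to 9645 with DOX, with CHGA at 7875 and 2870 CPM. Of the 10, 2 were higher and 1 lower in QGP-1, and 2 higher and 4 lower in BON-1. The 6 pancreatic exocrine markers summed to between 84.7 and 155 CPM with vehicle and 29.7 and 41.0 with DOX in QGP-1, and 34.6 to 44.6 and 19.1 to 26.8 in BON-1, nearly all of it PRSS1, with CTRB1 at 0. The 4 ductal markers ran from 225 to 250 CPM with vehicle and 163 to 205 with DOX in QGP-1, and from 264 to 318 and 330 to 427 in BON-1. The 4 leukocyte markers summed to 10.8 to 13.2 and 17.3 to 21.5 CPM in QGP-1 and 25.0 to 27.5 and 51.2 to 55.4 in BON-1, from LYZ and CD68, while PTPRC and CD3E were at or near 0. Mesenchymal and endothelial markers stayed at or under 3.42 CPM in sum in every library. The part of these shifts in the channel results was not tested.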

How the data were processed

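RNA from 3 cultures per group was made into poly(A)-selected, stranded libraries. Per the labels and the study's methods, the authors aligned reads to GRCh38 with STAR and used DESeq2 for their comparisons. The files the authors deposited hold raw counts per gene, and TPM, with 1 pair of tables a line; the counting program, its strand setting and its treatment of reads with several matches are not given in the sources used here. The 12 libraries were grouped by line and treatment from their titles.

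Counts were analysed with edgeR 4.0.16 (R 4.3.3): filterByExpr, TMM scaling and the quasi-likelihood test, each line in its own fit and the interaction and the line comparison over all 12 libraries or the vehicle libraries, with Benjamini-Hochberg adjustment over all genes tested and a threshold of 0.05. SE is the log2 fold change divided by the root of its F value. CPM were scaled by TMM over the 12 libraries. A line without a count was given 3 counts over the group for a lower bound of a fold, which covers counting error only. Levels per length used the deposited TPM. Positions are from GENCODE on GRCh38 and promoters from RefSeq (GRCh38.p14). The fits were tested on simulated counts first. Replicates were separate cultures, and no pair of libraries agreed within sampling noise.

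Members and gene lists were chosen with earlier results of these data known. Named were members past the threshold with a log2 fold change of at least 0.3 in a line or by the interaction, the 15 largest line differences, the 10 highest per length, members next to the minimum of 10 counts and a fixed set of channels of islet cells; other members were named after their values were seen. Alternatives were DESeq2 1.42.0, library size scaling, no filter, 10 counts in every library, limma 3.58.1 on log2(TPM + 1), a log2 fold change above 1, 1 fit of all 12 libraries, a replicate block and leaving out each library. Results on a few genes are not reported here.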

Additional observations from a re-analysis of the deposited data

Results flagged for a closer look

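The effect of DOX differed between the lines by the interaction test for 16 channel genes, which is why they are listed here, with the log2 fold change in BON-1 minus that in QGP-1. It was lower in BON-1 for KCND1 (-1.95), KCNA2 (-1.54), KCNJ11 (-1.18), SCN7A (-0.96), KCNG3 (-0.92), CACNA1C (-0.75), KCNMA1 (-0.54) and KCNAB2 (-0.51). It was higher in BON-1 for KCNH7 (0.48), KCND2 (0.52), SCN3A (0.59), KCNH8 (0.76), SCN9A (1.12), KCNE4 (1.18), KCNH1 (3.85) and CACNA1F (3.88). On the TPM scale the differences of KCND2, KCNH1, KCNH7, KCNH8, SCN3A and SCN9A were below 0, as was the median of all genes. The differences of KCNH1 and CACNA1F rest on BON-1 libraries of 0 to 6 counts.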

How the results depend on the processing

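Replicate numbers did not pair the libraries: the correlation of deviations of same-numbered vehicle and DOX libraries was -0.10, 0.16 and 0.11 in QGP-1 and -0.08, -0.04 and 0.11 in BON-1. With the replicate number as a block (replicate block), 9 members were lower and 20 higher in QGP-1, 11 and 6 in BON-1, 8 and 7 by the interaction, and 45 and 29 between the lines; CACNA2D2 in QGP-1 and CACNA1F in the interaction missed the threshold. Limma on log2(TPM + 1) moved the counts to 0 lower and 42 higher in QGP-1, 3 lower and 0 higher in BON-1, 36 lower and 0 higher for the interaction, and 20 lower between the lines, where the median of all genes itself stood at 0.48, -0.26, -0.75 and 0.87. On that scale these turned sign: KCNH1 in QGP-1 (0.024), KCNE4 in BON-1 (-0.022), and the interactions of KCND2 (-0.52), KCNH1 (-0.0060), KCNH7 (-0.54), KCNH8 (-0.16), SCN3A (-0.70) and SCN9A (-0.69). Keeping only calls with an absolute log2 fold change above 1, a cutoff and not a test against 1, left 6 lower and 1 higher in QGP-1. It left 5 and 2 in BON-1, and 3 and 4 for the interaction. Requiring 10 counts in every library left 19 members lower between the lines, where genes absent from BON-1 are not tested. One fit of all 12 libraries gave 10 higher in BON-1. Leaving out 1 library gave 6 to 9 lower and 13 to 20 higher in QGP-1, 8 to 11 lower and 4 to 7 higher in BON-1, 7 to 12 lower and 5 to 8 higher for the interaction, and 43 to 45 lower and 27 to 29 higher between the lines. Calls kept in every such fit were 19 of 30 in QGP-1, 12 of 17 in BON-1, 10 of 16 for the interaction and 69 of 74 between the lines. DESeq2 lost 1 of the BON-1 calls, and KCND3 and SCN8A between the lines. Apart from the limit of construction named for the 10-count filter, the cause of these moves was not tested. Scarce genes, such as KCNQ1, KCNK15 and CACNA2D2 in QGP-1, had under 70 counts in every library.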
